A study of Mus musculus with 8 samples.

Results

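NF-kB is a family of dimeric transcription factors, and the genes for its subunits and for its main inhibitors were examined in regulatory T cells (Treg). The 10 genes were chosen by name: the subunits of the canonical arm (Nfkb1, Rel and Rela), those of the alternative arm (Nfkb2 and Relb), the IkB inhibitors Nfkbia, Nfkbib, Nfkbie and Nfkbid, and the ubiquitin-editing enzyme gene Tnfaip3. All 10 were found by gene symbol among the 20172 genes of the deposited table, and the rule itself used no measured value. Their transcripts were compared between TNFR2+ and TNFR2- Treg, that is Treg with and without the type 2 TNF receptor on their surface. Both populations were sorted from spleens of female mice of the Foxp3 YFP-cre genotype, in which Foxp3, the lineage factor of Treg, drives a yellow fluorescent Cre fusion. Treg were therefore recognized by the reporter in either group, both groups carried the Cre, and no agent or further allele separated them. There were 4 libraries of each population, made from total RNA with a stranded low-input kit. The sample size given for this comparison matches the 4 libraries of a group, but the labels tie no library to a mouse and do not say whether both populations came from the same animals. The p-values therefore measure the spread between these libraries, which may be in part technical.

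NF-kB dimers wait in the cytoplasm bound to IkB proteins. In the canonical arm, antigen receptor, costimulatory or cytokine signals activate the IKK kinase complex, the IkB protein is degraded, and dimers that hold Rel, Rela and p50 (made from Nfkb1) enter the nucleus. In the alternative arm, receptors of the TNF receptor family stabilize the kinase NIK, p100 (made from Nfkb2) is cut to p52, and p52 enters the nucleus with Relb. Several IkB genes and Tnfaip3 are themselves switched on by NF-kB and so close feedback loops, and in Treg Rel and Rela are known for their roles in Treg development and in the effector Treg state.

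Because feedback runs through the promoters of these genes, the stretches upstream of their transcription starts are shown for the members on which the results below turn, with matches to the kB consensus site, the motif that NF-kB dimers bind, in capitals. Windows of 250 bases before the start (RefSeq, GRCm38.p6) were found for 8 members, and Nfkb1 and Relb had no entry. The site searched was GGGRNNYYCC, where R is a purine, Y a pyrimidine and N any base. A match on either strand was present for 6 of these 8 members (75%), against 8.23% of the 27025 genes that had a window. A gene can have several windows. Counted by window, 8 of 13 member windows held a match (61.5%), against 7.25% of all 32851 windows. Each sequence below is given 5′ to 3′ on the strand of its gene. Where a window overlapped an annotated exon, only 30 bases around a match are shown.
Rel (chr11:23770971-23771219, minus strand): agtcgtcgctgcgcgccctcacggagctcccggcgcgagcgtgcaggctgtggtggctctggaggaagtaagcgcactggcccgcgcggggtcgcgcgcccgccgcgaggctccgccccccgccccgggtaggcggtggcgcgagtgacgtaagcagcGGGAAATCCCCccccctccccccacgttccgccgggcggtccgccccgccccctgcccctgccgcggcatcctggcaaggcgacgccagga
Nfkb2, first stretch (chr19:46304688-46304717, plus strand): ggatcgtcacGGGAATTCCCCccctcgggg
Nfkb2, second stretch (chr19:46304707-46304736, plus strand): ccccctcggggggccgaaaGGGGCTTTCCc
Nfkbia (chr12:55492648-55492897, minus strand): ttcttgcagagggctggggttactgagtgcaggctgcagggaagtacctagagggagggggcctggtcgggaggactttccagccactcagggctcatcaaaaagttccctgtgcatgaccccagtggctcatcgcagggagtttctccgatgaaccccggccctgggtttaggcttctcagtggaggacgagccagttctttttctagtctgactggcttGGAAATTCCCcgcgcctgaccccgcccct
Nfkbid (chr7:30422156-30422405, plus strand): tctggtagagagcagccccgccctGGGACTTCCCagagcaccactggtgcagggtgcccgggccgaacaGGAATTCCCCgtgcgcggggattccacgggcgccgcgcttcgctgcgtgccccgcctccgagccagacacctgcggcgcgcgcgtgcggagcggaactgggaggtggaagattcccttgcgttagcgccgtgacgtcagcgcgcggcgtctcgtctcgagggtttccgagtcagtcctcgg
Tnfaip3, first stretch (chr10:19015516-19015545, minus strand): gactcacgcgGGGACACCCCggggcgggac
Tnfaip3, second stretch (chr10:19015411-19015440, minus strand): gtgactggaatttccatcGGAAATCCCCct

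Matching letters are a description and not a measured binding site. Rel, whose transcripts were higher in TNFR2+ Treg, and Nfkbid and Tnfaip3, whose normalized counts were lower there in every library, all held a match. So did Nfkb2, Nfkbia and Nfkbie, whose values overlapped between the groups. Nfkbid and Tnfaip3 also had windows without a match, and Nfkb2 had further windows with one. Rela and Nfkbib held none in their windows, which says only that these letters were not found there.

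Of the 10 genes, 3 rose in TNFR2+ Treg: Rel (1.85-fold), Relb (1.46-fold) and Nfkb1 (1.34-fold). None fell past the test. At an unadjusted p under 0.05, 5 were higher, Nfkb2 and Nfkbib added, against 12.3% of all genes, and 2 were lower, Nfkbid and Tnfaip3, against 10.7%. The test was limma on log2(normalized count + 1), two-sided, with Benjamini-Hochberg adjustment over the 13990 genes tested and a threshold of 0.05. These 3 of 10 are 30% of the members, against 7.91% of all genes called in either direction and 4.52% called higher. The groups did not overlap in 5 members, 3 higher (against 8.08% of all genes) and 2 lower (against 7.29%), and 15.4% of all genes did so in either direction. The median log2 fold change of the 10 was 0.27, against -0.01 over all genes tested. The plot of the members by library shows every value behind these counts.

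**Figure D1:**
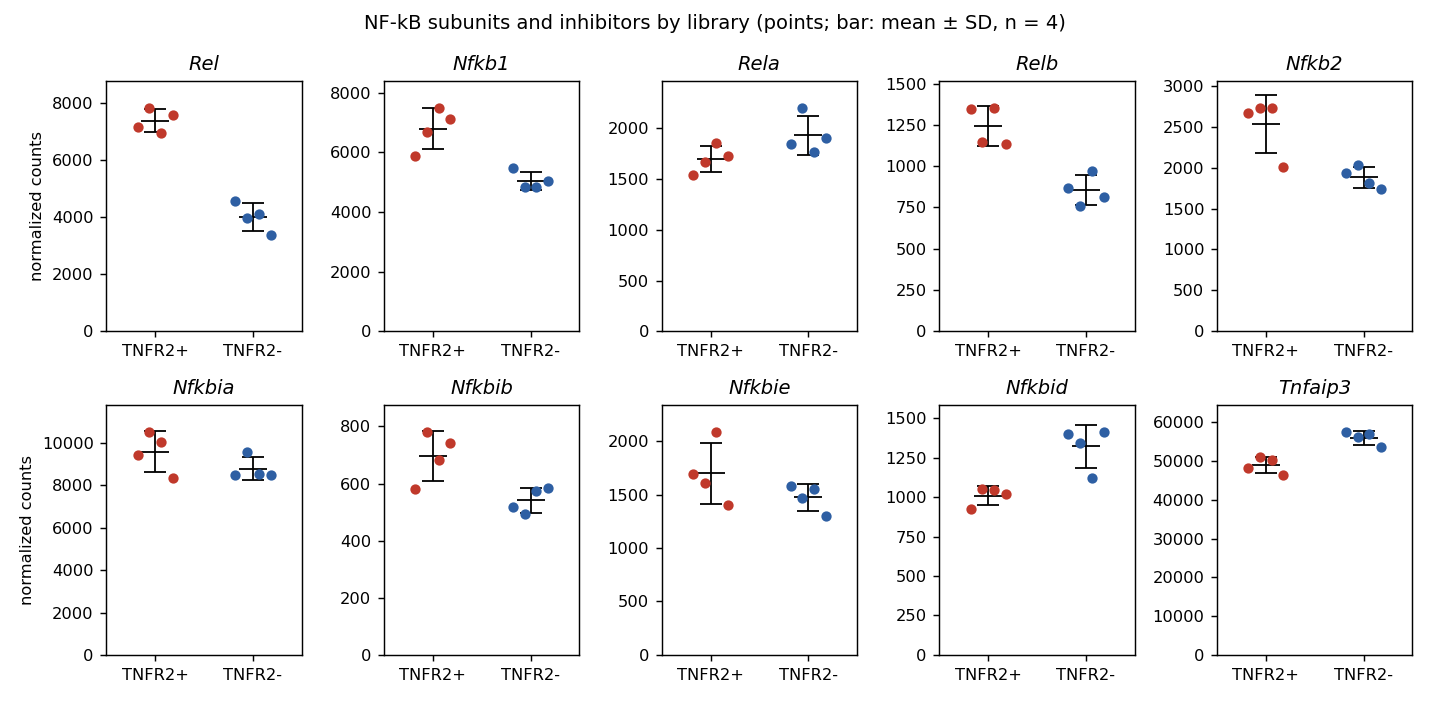
Normalized counts (vertical axes, each from 0) of the 10 genes in the 4 TNFR2+ (red) and 4 TNFR2- (blue) Treg libraries. Points are libraries and bars are mean ± SD. Rel, Nfkb1 and Relb were higher in every TNFR2+ library than in any TNFR2- library, and Nfkbid and Tnfaip3 were lower in every one.

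Rel encodes c-Rel, the canonical subunit most closely tied to antigen receptor signals in lymphocytes. It lies at chr11:23736847-23770970 on the minus strand (GRCm38). Its normalized counts were 7186, 7845, 6957 and 7609 in the TNFR2+ libraries and 4582, 3984, 4109 and 3385 in the TNFR2- libraries. The lowest TNFR2+ library stood well above the highest TNFR2- library. The means were 7399 ± 402 and 4015 ± 493 (SD, n = 4 each), a log2 fold change of 0.89 (SE 0.11, 95% interval 0.65 to 1.13, limma adjusted p = 4.98e-04). Rel kept its call when any 1 of the 8 libraries was left out, with log2 fold changes from 0.81 to 0.95.

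Nfkb1 encodes p105, the precursor of p50, and lies at chr3:135584655-135691547 on the minus strand. Its normalized counts were 5871, 6679, 7490 and 7116 in TNFR2+ Treg and 5487, 4846, 4851 and 5023 in TNFR2- Treg. The groups did not overlap, although TNFR2+ replicate 1 and TNFR2- replicate 1 lay close to each other. The means were 6789 ± 696 and 5052 ± 302, a log2 fold change of 0.42 (SE 0.10, limma adjusted p = 0.025). This call was narrow. It was lost without TNFR2+ replicate 2 (adjusted p = 0.0673), TNFR2+ replicate 3 (0.0848), TNFR2+ replicate 4 (0.067) or TNFR2- replicate 2 (0.0736).

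Rela encodes p65, the transactivating partner of p50, and lies at chr19:5637483-5648130 on the plus strand. Its normalized counts were 1536, 1671, 1852 and 1726 in TNFR2+ Treg and 1848, 2203, 1764 and 1907 in TNFR2- Treg. The groups overlapped, with TNFR2+ replicate 3 above a pair of TNFR2- libraries. The means were 1696 ± 131 and 1931 ± 191, a log2 fold change of -0.18 (SE 0.12, 95% interval -0.45 to 0.08, limma adjusted p = 0.397). Among the canonical subunits, then, Rel and Nfkb1 passed the test upwards and Rela had a value below 0 that was not distinguishable from 0.

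Relb, the partner of p52, lies at chr7:19606217-19629438 on the minus strand. Its normalized counts were 1349, 1145, 1354 and 1136 in TNFR2+ Treg and 869.1, 761.9, 971.8 and 815.6 in TNFR2- Treg. The groups did not overlap. The means were 1246 ± 122 and 854.6 ± 89.5, a log2 fold change of 0.54 (SE 0.14, 95% interval 0.25 to 0.84, limma adjusted p = 0.0282). The call held without TNFR2+ replicate 4 or TNFR2- replicate 3. It was lost without TNFR2+ replicate 1 (adjusted p = 0.085), TNFR2+ replicate 2 (0.0564), TNFR2+ replicate 3 (0.0871), TNFR2- replicate 1 (0.0549), TNFR2- replicate 2 (0.0829) or TNFR2- replicate 4 (0.0582).

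Nfkb2, which encodes p100 and so acts as an inhibitor until it is cut to p52, lies at chr19:46304320-46312385 on the plus strand. Its normalized counts were 2668, 2733, 2726 and 2010 in TNFR2+ Treg and 1933, 2037, 1817 and 1742 in TNFR2- Treg. TNFR2+ replicate 4 fell below TNFR2- replicate 2, and the other TNFR2+ libraries lay above all TNFR2- libraries. The means were 2534 ± 351 and 1882 ± 130, a log2 fold change of 0.42 (SE 0.13, 95% interval 0.14 to 0.70, limma adjusted p = 0.0657). The exact two-sided permutation p for Nfkb2 was 0.0571, where the 70 relabellings of 4 against 4 allow no p below 0.0286. Without TNFR2+ replicate 4 the log2 fold change was 0.53 with an adjusted p of 0.0234. Exons of Nfkb2 overlap those of Psd and AC114539.1 on the other strand, and the kit kept strand.

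The 2 arms were compared through the mean log2 level of their subunits in each library, as values with no test. The canonical mean was 12.10 ± 0.09 in TNFR2+ and 11.72 ± 0.08 in TNFR2- Treg, a difference of 0.38. The alternative mean was 10.79 ± 0.16 and 10.31 ± 0.07, a difference of 0.48. Neither arm overlapped between the groups. Alternative minus canonical was -1.08, -1.33, -1.26 and -1.59 in the TNFR2+ libraries and -1.47, -1.49, -1.30 and -1.42 in the TNFR2- libraries. These values overlapped, and the TNFR2+ range enclosed the TNFR2- range. The difference between the groups, 0.11, was smaller than the TNFR2+ standard deviation of 0.21. On this measure the shift between the arms was not distinguishable from the spread between libraries.

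**Figure D2:**
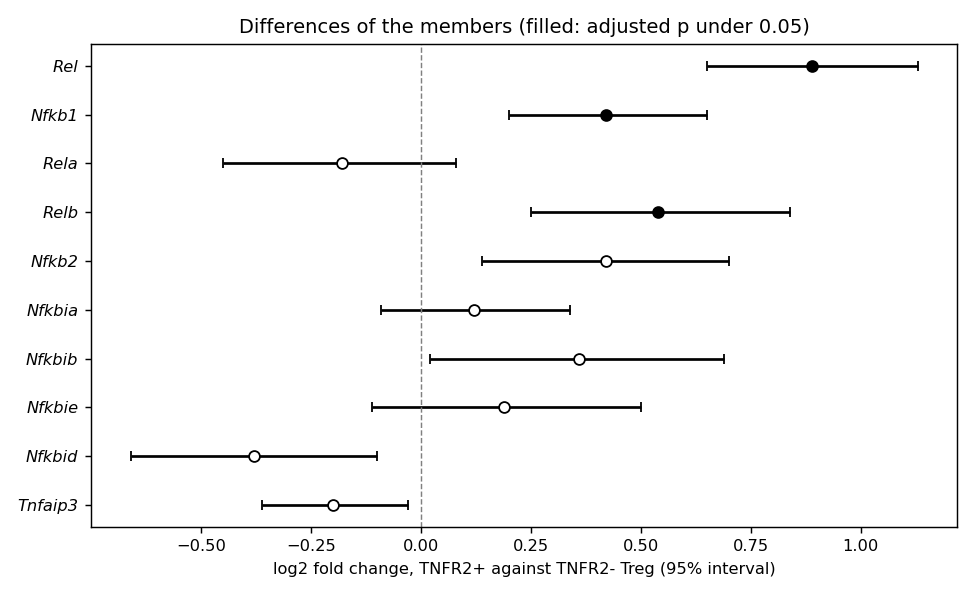
Log2 fold change of each gene in TNFR2+ against TNFR2- Treg (horizontal axis) with its 95% interval from limma, n = 4 each. Filled points passed an adjusted p of 0.05. Rel stood highest at 0.89, and the intervals of Rela, Nfkbia and Nfkbie held 0.

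Inside the canonical arm, the levels of Rel and Rela stood in a different relation in each group. To compare genes with each other, normalized counts were divided by the summed exon length of each gene in kilobases. This length joins the exons of all annotated transcripts, 12061 bases over 10 transcripts for Nfkb1 and 7466 over 1 for Rel. It can exceed the length of the transcripts in use, so the order of the genes depends on it. In normalized counts the TNFR2+ means of Rel and Nfkb1 were 7399 and 6789. On this scale Rel was the most abundant subunit in TNFR2+ Treg, at 991 ± 53.8 per kb. Nfkb1 (563 ± 57.7), Nfkb2 (553 ± 76.5) and Rela (552 ± 42.5) followed at levels that did not differ beyond their spread, and Relb was lowest at 321 ± 31.3 per kb. In TNFR2- Treg the order began with Rela at 628 ± 62.1 per kb and Rel at 538 ± 66.0, which did not separate beyond their spread. Nfkb1 (419 ± 25.0) and Nfkb2 (411 ± 28.3) were again alike within their spread, and Relb was lowest at 220 ± 23.0 per kb.

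As a share of the summed level per kb of the 5 subunits, Rel made up 33.4, 34.6, 30.1 and 35.1% in the TNFR2+ libraries and 26.5, 23.3, 25.3 and 21.8% in the TNFR2- libraries. Rela made up 17.4, 17.9, 19.5 and 19.4% in TNFR2+ and 26.0, 31.3, 26.4 and 29.8% in TNFR2- Treg. Neither share overlapped between the groups, with means of 33.3 ± 2.26% and 24.2 ± 2.1% for Rel and of 18.5 ± 1.04% and 28.4 ± 2.58% for Rela. The shares of Nfkb1 (mean 18.9% in both groups) and Nfkb2 (18.5% in both) overlapped, as did that of Relb, at 10.8 ± 1.08% and 9.95 ± 1.22%. These shares sum to a whole, so a rise in one lowers the others, and their sizes depend on the exon lengths used.

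**Figure D3:**
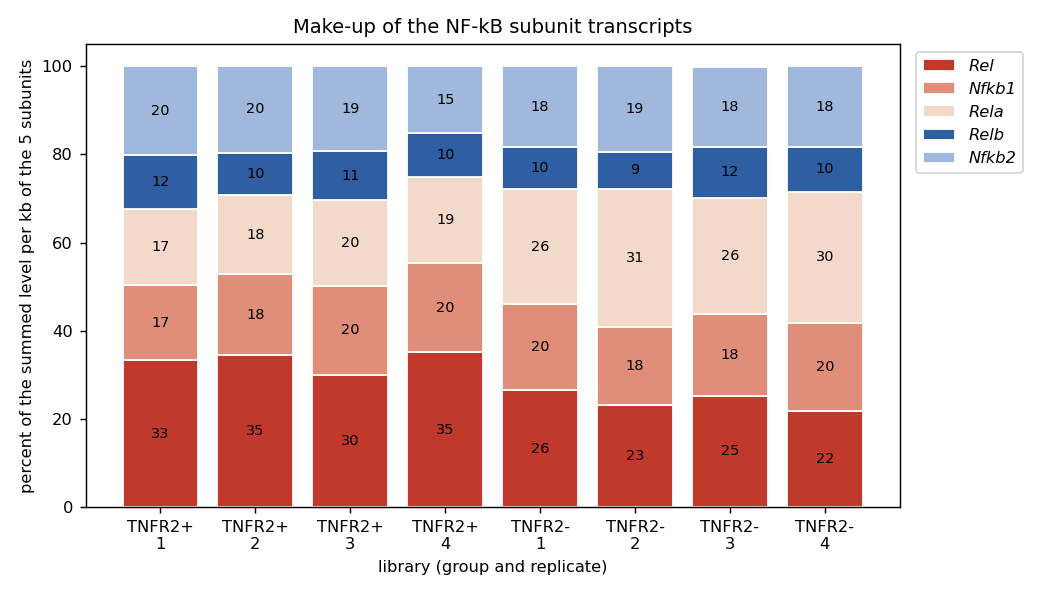
Make-up of the NF-kB subunit transcripts in each library, as the percent of the summed normalized counts per kb of exon (vertical axis), with 1 bar a library and canonical subunits in red shades and alternative subunits in blue. Rel held between 30.1 and 35.1% in TNFR2+ and between 21.8 and 26.5% in TNFR2- libraries.

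The ratio of Rel to Rela normalized counts was 4.68, 4.69, 3.76 and 4.41 in TNFR2+ Treg and 2.48, 1.81, 2.33 and 1.78 in TNFR2- Treg. Every TNFR2+ library exceeded every TNFR2- library, and the mean ratio was 2.09 times as high. Rel had the highest and Rela the lowest log2 fold change of the subunits, so this ratio repeats their single values. The ratio of Relb to Rela also did not overlap, at 0.738 ± 0.098 and 0.449 ± 0.0854. In contrast, the ratio of the precursor genes, Nfkb2 to Nfkb1, was 0.377 ± 0.0733 and 0.374 ± 0.0335 and overlapped fully. In sorted bulk samples, fewer cells of one kind and less RNA per cell cannot be told apart.

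The inhibitors did not move as a group. Of the IkB genes, none passed the test in either direction in limma, while Nfkbib was higher and Nfkbid lower at an unadjusted p under 0.05. Their roles differ: IkB-alpha, IkB-beta and IkB-epsilon hold dimers in the cytoplasm, while Nfkbid encodes IkB-NS, a nuclear IkB protein that acts on bound dimers and is known to promote Foxp3 expression in developing Treg.

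Nfkbia (IkB-alpha, chr12:55489410-55492647, minus strand) had normalized counts of 9462, 10547, 10056 and 8333 in TNFR2+ Treg and 8513, 9602, 8545 and 8506 in TNFR2- Treg. The groups overlapped, with TNFR2+ replicate 4 the lowest of all 8 libraries. The means were 9600 ± 954 and 8792 ± 541, a log2 fold change of 0.12 (SE 0.10, 95% interval -0.09 to 0.34, limma adjusted p = 0.512). With quantile normalization the value was 0.33 and the adjusted p 0.0466, so this result depended on the scaling. Nfkbia was by far the most abundant of the IkB genes, at 5960 ± 592 per kb in TNFR2+ and 5460 ± 336 in TNFR2- Treg.

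Nfkbib (IkB-beta, chr7:28758251-28767512, minus strand) had normalized counts of 579.9, 782.2, 681.5 and 742.3 in TNFR2+ Treg and 516.4, 494.4, 572.7 and 584.0 in TNFR2- Treg. Only TNFR2+ replicate 1 lay within the TNFR2- range. The means were 696.5 ± 88.0 and 541.9 ± 43.3, a log2 fold change of 0.36 (SE 0.16, 95% interval 0.02 to 0.69, limma adjusted p = 0.189). Exons of Nfkbib overlap those of Sirt2 and Ccer2 on the other strand.

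Nfkbie (IkB-epsilon, chr17:45555703-45563169, plus strand) had normalized counts of 1694, 1604, 2089 and 1403 in TNFR2+ Treg and 1580, 1469, 1549 and 1300 in TNFR2- Treg. The groups overlapped, and TNFR2+ replicate 4 was below all TNFR2- libraries but replicate 4. The means were 1698 ± 288 and 1475 ± 125, a log2 fold change of 0.19 (SE 0.14, 95% interval -0.11 to 0.50, limma adjusted p = 0.462).

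Nfkbid (chr7:30421732-30428746, plus strand) had normalized counts of 924.9, 1051, 1047 and 1019 in TNFR2+ Treg and 1402, 1344, 1124 and 1416 in TNFR2- Treg. Every TNFR2+ library was below every TNFR2- library, with TNFR2- replicate 3 the nearest. The means were 1011 ± 58.8 and 1321 ± 135, a log2 fold change of -0.38 (SE 0.13, 95% interval -0.66 to -0.10, limma adjusted p = 0.0934). The exact two-sided permutation p for Nfkbid was 0.0286, the smallest the design allows. Without TNFR2- replicate 3 the log2 fold change was -0.46 and the adjusted p 0.0452. Set against each other, Nfkbid and Nfkbib gave a ratio of 1.46 ± 0.122 in TNFR2+ and 2.46 ± 0.356 in TNFR2- Treg, with no overlap. Nfkbid had the lowest and Nfkbib the highest log2 fold change of the 4 IkB genes, and neither passed the test. The ratio therefore repeats their single values and is not a separate result.

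Tnfaip3 encodes A20, which edits ubiquitin chains on receptor complexes and shuts off IKK activation. It lies at chr10:19000910-19015657 on the minus strand. By mean normalized count it ranked 9 among all genes of the table. Its normalized counts were 48227, 50915, 50116 and 46271 in TNFR2+ Treg and 57566, 56058, 56865 and 53493 in TNFR2- Treg. Every TNFR2+ library was below every TNFR2- library. The means were 48882 ± 2070 and 55996 ± 1780, a log2 fold change of -0.20 (SE 0.08, 95% interval -0.36 to -0.03, limma adjusted p = 0.147, exact two-sided permutation p = 0.0286). The summed normalized counts were themselves lower in TNFR2+ libraries (9576920 to 10295226) than in TNFR2- libraries (10483291 to 11492762), and Tnfaip3 made up 0.488% and 0.512% of them. Taken as a share of each library's sum, Tnfaip3 overlapped between the groups, so the separation holds for the normalized counts as deposited. With quantile normalization its log2 fold change was -0.06.

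As ratios to the subunit sum, the IkB genes and Tnfaip3 were lower in TNFR2+ Treg, while the IkB sum itself was not. The summed level per kb of the 5 subunits was 2980 ± 106 in TNFR2+ and 2220 ± 110 in TNFR2- Treg and did not overlap, while that of the 4 IkB genes, at 7270 ± 664 and 6760 ± 328, overlapped. The IkB sum was 2.46, 2.59, 2.48 and 2.21 times the subunit sum in the TNFR2+ libraries and 2.87, 3.16, 3.02 and 3.16 times in the TNFR2- libraries. The level of Tnfaip3 per kb was 2.27 ± 0.0568 times the subunit sum in TNFR2+ and 3.5 ± 0.108 times in TNFR2- Treg. Neither ratio overlapped between the groups. Nfkbia carries most of the IkB sum and Rel most of the difference in the subunit sum, so these ratios repeat the single genes' values. The sums also depend on the exon lengths used.

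Within the groups, some members rose and fell together from library to library. As a description over 8 libraries, the deviations of log2 levels from the group means correlated at 0.893 between Nfkb2 and Nfkbia, at 0.785 between Nfkb2 and Tnfaip3, and at 0.724 between Nfkbie and Tnfaip3. TNFR2+ replicate 4 was the lowest TNFR2+ library for Nfkb2, Nfkbia, Nfkbie, Tnfaip3 and Relb alike. The lowest values were -0.633 between Relb and Nfkbid and -0.53 between Rela and Relb. All members share their libraries and scaling, and no test was made.

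The genes whose levels followed Relb most closely over the 8 libraries were Ctla4, an inhibitory receptor of Treg (Pearson r of log2 levels 0.991), the chemokine receptor gene Cxcr4 (0.99), Rgs2, a regulator of G-protein signals (0.986), Pmaip1, which encodes the death protein NOXA (0.982), and the lysosomal protease gene Ctsb (0.977). They were searched among protein-coding genes with a mean of at least 50. After removal of the group means these r were 0.899 to 0.962. The r by which the genes were chosen already holds the spread inside the groups, so this is not a separate result. For Rela the closest genes were Eloc, which encodes a ubiquitin ligase subunit (0.981), the stress kinase gene Map2k4 (0.965), Dock11, which encodes an exchange factor for small GTPases (0.949), the tubulin-modifying enzyme gene Ttll3 (0.946) and the ubiquitin ligase gene Lrsam1 (0.936). None of these 5 passed the test between the groups (limma adjusted p 0.0827 to 0.314). These are the highest of 9194 values over only 8 points and are given as a description.

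Of the receptors that feed NF-kB, those with a called difference were higher in TNFR2+ Treg. TNFR2 itself is the product of Tnfrsf1b, whose normalized counts were 3148, 1840, 2631 and 2383 in TNFR2+ and 1266, 1563, 1177 and 1277 in TNFR2- Treg. The log2 fold change was 0.90 (SE 0.16, limma adjusted p = 0.00449), which follows the sort on its protein and is a check of the labels. Of the 18 receptor-side genes tested, 5 rose, the sorted gene among them, against 4.52% of all genes. None fell in limma (4 were lower at an unadjusted p under 0.05, against 10.7% of all genes), and the median was 0.03. The 5 were all TNF receptor family members that costimulate T cells: Tnfrsf9 (4-1BB, log2 fold change 2.66, adjusted p = 4.70e-04), Tnfrsf8 (CD30, 2.39), Tnfrsf4 (OX40, 1.42), Tnfrsf1b and Tnfrsf18 (GITR, 0.88). Each of these kept its call when any 1 library was left out. The endosomal RNA sensor gene Tlr7 (-1.83, adjusted p = 0.0569) and Il18rap, a chain of the IL-18 receptor (1.17, adjusted p = 0.225), did not pass.

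The kinases between receptors and IkB, listed with their partner proteins, leaned the other way. The 16 genes of this list, adaptors included, are called kinase genes here. Of these, 5 fell and none rose in limma, against 3.39% of all genes called lower. At an unadjusted p under 0.05, 6 were lower, against 10.7% of all genes, and 1 was higher, against 12.3%. The median log2 fold change was -0.27. Prkcq, which encodes PKC-theta and carries the antigen receptor signal to IKK, had 2587 ± 302 normalized counts in TNFR2+ and 4879 ± 436 in TNFR2- Treg (-0.92, SE 0.12, adjusted p = 6.10e-04). Map3k14, which encodes NIK, the kinase of the alternative arm, had 593.3 ± 107 and 1107 ± 274 (-0.88, SE 0.20, adjusted p = 0.0149). Neither gene overlapped between the groups, nor did the other called kinase genes.

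The log2 fold change of Map3k3, an activator of IKK, was -0.63 (adjusted p = 0.00891), that of Ikbkb, which encodes the IKK-beta subunit, -0.61 (0.0417), and that of Azi2, an adaptor of the kinase TBK1, -0.54 (0.0421). When the libraries were left out in turn, Prkcq and Map3k3 kept their calls in 8 of 8 fits, Map3k14 in 6, Ikbkb in 1 and Azi2 in 0. Without 1 library the adjusted p reached 0.0548 for Map3k14, 0.127 for Ikbkb and 0.119 for Azi2. The number of kinase genes called lower was 2 to 4 over these fits, with 2 without TNFR2+ replicate 2 or TNFR2- replicate 2, and it was 1 with variances that do not follow an intensity trend. Chuk, which encodes IKK-alpha (-0.54, adjusted p = 0.079), and Tank, another TBK1 adaptor (0.43, adjusted p = 0.112), did not pass.

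**Figure D4:**
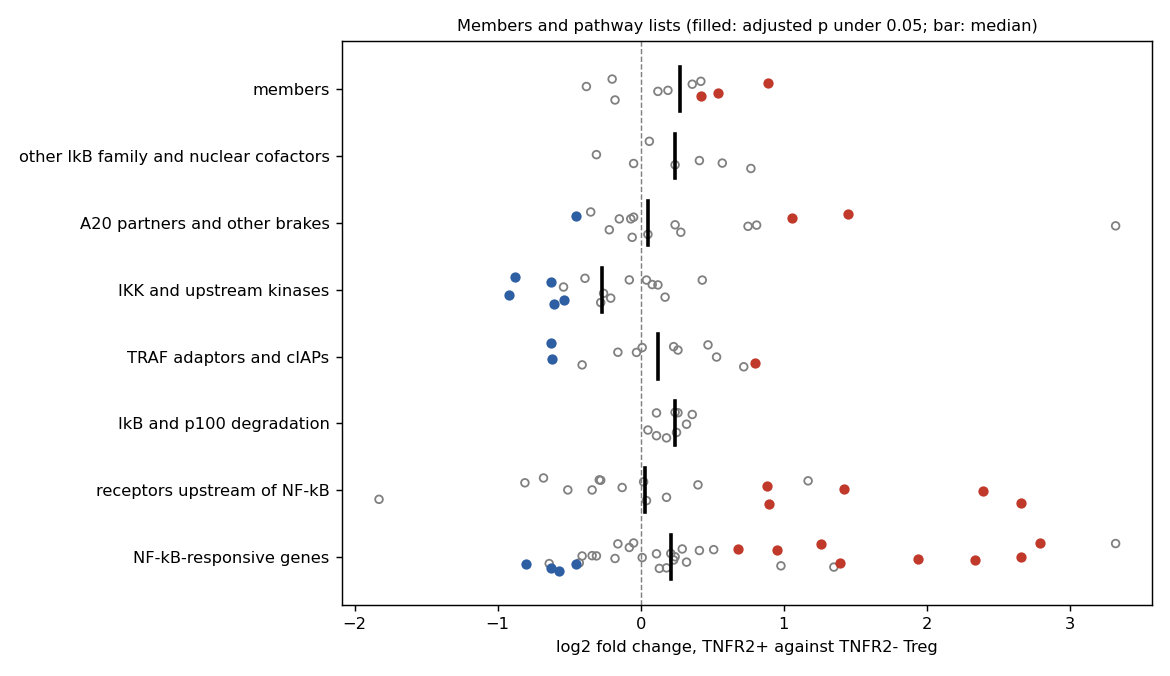
Log2 fold changes in TNFR2+ against TNFR2- Treg (horizontal axis) of the members and of the other genes of the pathway, with 1 point a gene, filled red (higher) or blue (lower) where the limma adjusted p was under 0.05, and a bar at each list's median. The kinase and kinase adaptor genes called all lay below 0 and the receptor genes called all lay above 0.

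Of 12 TRAF adaptor and cIAP genes, 1 rose and 2 fell, against 4.52% and 3.39% of all genes. Traf4, an adaptor, was the one that rose (0.80, limma adjusted p = 0.0455), and no gene of the list was called higher with upper-quartile rescaling, array weights or variances without an intensity trend. Birc3, which encodes cIAP2, a ubiquitin ligase that marks NIK for decay and is itself an NF-kB target (-0.63, adjusted p = 0.0206), and Traf3ip3, a TRAF3-binding protein gene (-0.62, adjusted p = 0.0321), fell. The median was 0.12. Birc3 kept its call in 5 of the 8 fits that left out a library, and Traf4 and Traf3ip3 in 2 each. Xiap, a caspase inhibitor gene (0.72, adjusted p = 0.102), and Tradd, an adaptor of TNFR1 (0.53, adjusted p = 0.472), did not pass.

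Of 15 partners of A20 and other brakes, 2 rose and 1 fell, against 4.52% and 3.39% of all genes, with a median of 0.05. N4bp1, a suppressor of NF-kB signals, had 1100 ± 145 normalized counts in TNFR2+ and 527.9 ± 83.0 in TNFR2- Treg (log2 fold change 1.06, SE 0.16, adjusted p = 0.00179) and kept its call without any 1 library. Nlrx1, a mitochondrial NLR protein gene, rose from a low level (121.4 ± 15.2 against 46.4 ± 18.3, log2 fold change 1.45, adjusted p = 0.0256). Zc3h12a, which encodes Regnase-1, an RNase that destroys inflammatory mRNAs, fell (-0.45, adjusted p = 0.0299). Nlrx1 kept its call in 2 and Zc3h12a in 3 of the 8 fits that left out a library. Rnf11, a partner of A20 (0.81, adjusted p = 0.0558), did not pass. Tnip3, another partner (adjusted p = 0.0972), did not pass either and was listed at 0 in all TNFR2- libraries but replicate 3.

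In 2 lists, no gene passed in limma. Of 7 other IkB family and nuclear cofactor genes, 1 was higher at an unadjusted p under 0.05, against 12.3% of all genes. Another 1 was lower, against 10.7%, and the median was 0.24. The named genes there were Commd1, a factor that speeds Rela decay (0.77, adjusted p = 0.336), and Pdlim2, a ubiquitin ligase gene for nuclear Rela (0.57, adjusted p = 0.166). Of 9 genes of the machinery that degrades IkB and processes p100, none was past an unadjusted p of 0.05 in either direction. Over all genes, 12.3% were higher and 10.7% lower at that threshold. The median of these 9 genes was 0.24. Btrc, which recognizes phosphorylated IkB (0.36, adjusted p = 0.471), and Ube2m, an enzyme that activates its ligase (0.32, adjusted p = 0.391), had the largest values.

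Of 35 genes known to respond to NF-kB, 8 rose and 4 fell, against 4.52% and 3.39% of all genes, with a median log2 fold change of 0.21. Those that rose with the smallest p were Cd83, an activation marker (2.34, limma adjusted p = 1.45e-04), the hyaluronan receptor gene Cd44 (0.95, adjusted p = 0.00266), Ebi3, a subunit of IL-35 and IL-27 (2.66, adjusted p = 0.00398), and the survival genes Bcl2l1 (1.26, adjusted p = 0.00475) and Bcl2a1b (1.39, adjusted p = 0.00483). All 5 kept their calls when any 1 library was left out. Bcl2a1b and Bcl2a1d are near copies between which reads may be split, so the value of each is uncertain. Also called higher were Bcl2a1d, Il10 and Gadd45b. The 4 that fell were Zc3h12a, Birc3, Irf1, a factor of the interferon response (-0.57, adjusted p = 0.0194), and Ccr7, the lymph node homing receptor (-0.80, adjusted p = 0.0109). The number that fell was 2 without TNFR2+ replicate 3 or TNFR2+ replicate 4 and 1 without TNFR2- replicate 2. Cxcl10, a chemokine gene (1.35, adjusted p = 0.0696), and Tnip3 did not pass.

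Genes of the early response to stimulation or handling also separated the groups, and several of them share upstream signals with NF-kB. Of 21 tested, 10 were lower and 1 was higher in TNFR2+ Treg, against 3.39% and 4.52% of all genes. The median log2 fold change was -0.46, against -0.01 over all genes tested. Jun (-1.17, limma adjusted p = 0.00119) and Nr4a1 (-0.98, adjusted p = 5.87e-04) were among the lower genes. The summed normalized counts of the list were 88710 to 104602 in TNFR2+ and 120422 to 142463 in TNFR2- libraries, which do not overlap. The part of this difference in the values of Nfkbid, Tnfaip3, Birc3 and Zc3h12a was not tested.

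The labelled cell type was present in every library. The 11 Treg and T cell markers summed to between 40195 and 45653 normalized counts in TNFR2+ and between 28928 and 35290 in TNFR2- libraries. Of these markers, 5 were called higher in TNFR2+ Treg, against 4.52% of all genes: Ctla4, Ikzf2, Tnfrsf18, Il2rb and Cd3e. None was called lower, against 3.39% of all genes. Foxp3 (-0.23, limma adjusted p = 0.232) and Il2ra, which encodes CD25 (-0.34, adjusted p = 0.086), had values below 0, and Il2ra was lower in every TNFR2+ library than in any TNFR2- library. B cell markers, of which 11 of 15 were in the table, summed to 4032 to 6092 in TNFR2+ and 1843 to 2975 in TNFR2- libraries. Most of this was Ighm (1.27, adjusted p = 7.45e-04), without which the sums were 490 to 599 and 259 to 572. Of the 7 tested, 1 was called higher, against 4.52% of all genes, and the median log2 fold change was 0.94. Cd22 had 309.2 ± 35.6 and 150.5 ± 70.6 normalized counts with no overlap (1.20, adjusted p = 0.0612). The groups overlapped in Ighd (means 57.27 and 26.36), Cd79b (38.7 and 24.66) and Ms4a1 (57.49 and 55.42), while Cd79a, Pax5, Blk and Fcer2a had means under 10 over the 8 libraries. B cells also use Rel and Relb, and the part of B cell RNA in the values of these genes was not tested.

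Of the other markers, plasma cell genes (3 of 5 in the table) summed to 683 to 895 and 646 to 972, and nearly all of that was Xbp1, which T cells also use. Dendritic cell genes (4 of 8) gave 189 to 366 in TNFR2+ and 267 to 605 in TNFR2- libraries. Of the 3 tested, Xcr1 was called lower (-0.83, limma adjusted p = 0.0498), against 3.39% of all genes. CD8 and NK cell genes (7 of 10) gave 142 to 212 and 105 to 170. Of the 4 tested, Nkg7 was called higher (3.19, adjusted p = 0.00927), against 4.52% of all genes. Monocyte, macrophage and granulocyte genes (6 of 17) gave 27 to 104 and 39 to 107, and erythroid and platelet genes (2 of 11) gave 12 to 221 and 42 to 178. None of these lists came near the level of the T cell markers. Their part in the values of the members was not tested.

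Over all genes, the groups separated on the first principal component (29.4% of the variance), and TNFR2- replicate 3 stood apart on the second (16.7%). Without that library the same 3 members were called higher and Nfkbid was called lower. The plot of adjusted p over settings shows how close each member lay to the threshold.

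**Figure D5:**
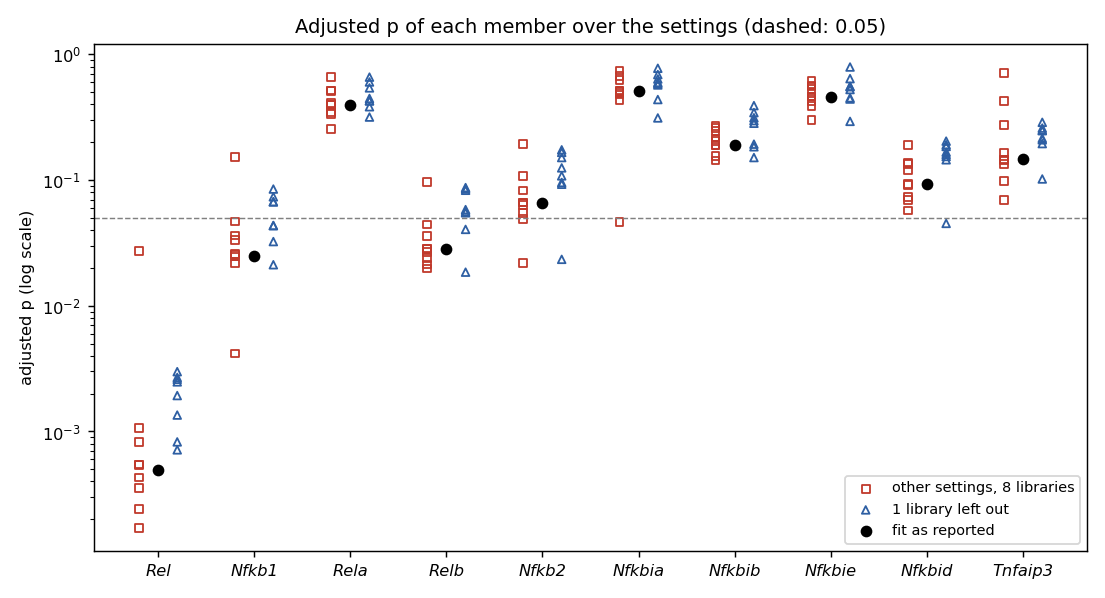
Limma adjusted p of each member (vertical log axis, dashed line at 0.05) in the fit as reported (black), in 9 other settings with all 8 libraries (red squares) and with 1 library left out (blue triangles). Rel stayed below the line throughout, Nfkb1, Relb and Nfkb2 had points on both sides, and Rela, Nfkbib, Nfkbie and Tnfaip3 stayed above it.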

How the data were processed

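Reads were trimmed, quantified with salmon 1.3.0 against the Ensembl GRCm38 transcripts and normalized with DESeq2 1.28 by the authors. The deposited values are normalized counts, a signal per gene and library that is not in whole reads. They sum to between 9576920 and 11492762 per library, and the steps between low values give an estimated 9100000 to 12100000 reads, which limits the precision of low genes.

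Symbols came from GENCODE M21 (20008 of 20172 genes matched). Genes with a mean of at least 10 (13990) were fitted with limma 3.58.1 in R 4.3.3 on log2(value + 1), with an intensity trend, in place of the count model of the study, since whole reads could not be recovered. Fold changes are on that scale, which understates the change of low genes. Single genes also had exact permutation tests. The fit was tested on simulated data. Alternatives changed the pseudocount, filter, scaling, variance model, sample weights, pairing and libraries.

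The genes and lists were chosen with earlier results of these data known. Named were all members, the gene behind the sort, up to 5 called and the 2 largest other genes per list, and the 5 genes most like Relb and Rela. Bcl2a1d, Il10, Gadd45b, Irf1, Ccr7, and single marker genes were named after their values were seen. A further planned gene list is not reported here.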

Additional observations from a re-analysis of the deposited data

Results flagged for a closer look

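Of 88 groups of 4 libraries over 44 named genes, 7 had 1 library far from the others by Dixon's criterion, and chance alone gives about 1 in 20. For members, Nfkb2 in TNFR2+ replicate 4 stood low at 2010 normalized counts, against 2668 to 2733 in the others, and Nfkbia in TNFR2- replicate 2 stood high at 9602, against 8506 to 8545. In TNFR2+ Treg, Pdlim2 was low in replicate 1 (282.8 against 411.2 to 432.8), Nlrx1 was high in replicate 2 (144.1 against 112.1 to 116.2), and Tank was low in replicate 4 (1520 against 2140 to 2187). In TNFR2- Treg, Tnip3 was 13.9 in replicate 3 and listed at 0 in the others, and Tlr7 was high in replicate 1 (371.5 against 54.64 to 98.9).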

How the results depend on the processing

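Of 170 refits of the members over 17 alternatives, 153 kept direction and side of the threshold, 12 lost a call, 5 gained one and 0 reversed. The number of members called higher, 3 as reported, was 5 with quantile normalization (Nfkb2 and Nfkbia added), 1 with variances without an intensity trend (Rel alone, with Nfkb1 at an adjusted p of 0.152 and Relb at 0.097), and 1 to 3 when 1 library was left out. The number called lower, 0 as reported, was 0 to 1 when 1 library was left out (Nfkbid without TNFR2- replicate 3). The cause of these changes was not tested, beyond the smaller number of samples when 1 is left out. The difference between the arms, 0.11 as reported, ranged from 0.03 to 0.20 when 1 library was left out. The calls over all genes, 1107 as reported, were 465 with variances without an intensity trend and 636 to 1324 when 1 library was left out. Under quantile normalization and without the trend, kinase genes called lower went from 5 to 3 and 1, and responsive genes called lower from 4 to 1 and 0, while receptor genes called higher stayed at 5 and 4.

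No pairing by replicate number was seen in the values. The deviations of same-numbered libraries correlated at -0.0386 to 5.42e-04, and no TNFR2+ library correlated best with the TNFR2- library of its number. Whether same-numbered libraries share animals cannot be told from these correlations. With a replicate block the number of members called higher was 4, since Nfkb2 passed at an adjusted p of 0.0489. Depth limits the low genes such as Tnip3 more than the members, whose means were all above 500.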
